A study of Saccharomyces cerevisiae with 6 samples.

Results

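This section describes 2 chromosomal stretches whose summed level was higher in a yeast library without ASK10 than in libraries with it. One stretch lies on chromosome I and holds 37 genes: 17 left arm genes with locus numbers from YAL001 to YAL019, and 20 right arm genes, which are all the YAR genes listed except ADE1. On their own, the 17 left arm genes were not clearly raised in that library. The other lies at the left end of chromosome XII and holds 33 genes, from YLL027 to the highest left arm number listed. The members were chosen by locus tag, after their high counts in the deletion library had been seen, so every comparison with that library is a description and carries no test. Together the stretches hold 70 of the 6032 genes listed. Another 7 genes are left out by the choice, 6 of them between members and HSP104 at the inner edge of the chromosome XII stretch. The remaining 49 left arm genes of chromosome I and 23 left arm genes of chromosome XII serve as neighbours.

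The budding yeast Saccharomyces cerevisiae was grown in synthetic medium without uracil, with 20 g/l glucose, and mRNA was sequenced from 3 strains. One strain lacked ASK10 (deletion), another had the ASK10 allele M475R, and the last had wild-type ASK10 (WT). The ASK10 protein helps to control Fps1, the channel through which yeast cells release glycerol. The labels do not say how the deletion was made, or whether replicates were separate cultures. Deletion replicate 1 was not analysed here, so the strain is represented by replicate 2 alone, set against M475R replicates 1 and 2 and WT replicates 1 and 2.

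A systematic yeast gene name gives the chromosome as a letter, then the arm as L or R, then a number that counts outward from the centromere, so map order can be read from the names. Genes next to a centromere are as a rule ordinary single-copy genes, whereas the outermost stretch of an arm often holds families repeated at other ends, whose reads are hard to assign to 1 copy. Genes close to a telomere can also be held down by silent chromatin. Most members lie on the centromere side of such repeats and serve unrelated functions, from transcription and RNA processing to membrane traffic and nutrient transport.

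The name chromosome end holds for the stretch on chromosome XII and for the right arm of chromosome I. It does not hold for the left arm part on chromosome I, which is the innermost part of that arm. The chromosome I stretch thus runs across the centromere and then out to the right end. Of the 70 members, 55 were found in the reference gene table of assembly R64, 28 on chromosome I and 27 on chromosome XII.

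Total expected counts were 117679 in the deletion library, 4155202 and 71226 in M475R replicates 1 and 2, and 102609 and 51572 in WT replicates 1 and 2. The 70 members together took 1214 counts in the deletion library, 26338 and 428 in M475R, and 653 and 363 in WT. Levels are given as CPM, counts scaled to a common library size after TMM adjustment, and the smallest step of 1 count was worth 9.51 CPM in the deletion library, 0.261 and 15.1 in M475R, and 10.8 and 21.3 in WT. The detection floor was set at 3 counts, which is 28.5 CPM in the deletion library, 0.784 and 45.2 in M475R, and 32.3 and 63.8 in WT. ASK10 itself had 0 counts in the deletion library, 567 and 4 in M475R, and 5 and 7 in WT. The M475R libraries differed from each other by no more than sampling noise (chi-square 1.02 per degree of freedom over 2876 genes, p = 0.180), as did the WT libraries (1.00 over 2001 genes, p = 0.443). Each pair is therefore counted as 1 sample, and values are printed for each library without an SD. All intervals are 95% intervals for counting error only, and pooled M475R values largely follow the much deeper replicate 1.

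The stretch on chromosome XII had a summed level of 8095 CPM in the deletion library (exact Poisson interval 7561 to 8658), against 4464 and 4035 CPM in the M475R libraries and 4823 and 5228 CPM in the WT libraries. The deletion value lay above each of the 4 others, and its interval did not meet theirs, of which the highest, that of WT replicate 2, ended at 5924 CPM. The pooled ratio of the deletion was 1.82 to M475R (1.69 to 1.95) and 1.63 to WT (1.48 to 1.81). One member, YLL044W, gave 2844 CPM of the deletion sum and is taken up separately. Without it the sums were 5251 CPM in the deletion library, 2702 and 2680 CPM in M475R, and 2659 and 2805 CPM in WT, and both ratios came to 1.94. RNA from a whole culture cannot tell a higher level in each cell from a high level in some of the cells.

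The right arm part on chromosome I had a similar ratio. Its 20 genes summed to 2045 CPM in the deletion library (1781 to 2338), against 1054 and 1024 CPM in M475R and 1023 and 1105 CPM in WT. The 4 libraries with an ASK10 gene lay close together, and the deletion library stood at 1.94 times M475R (1.69 to 2.23) and 1.95 times WT (1.57 to 2.42).

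The left arm part on chromosome I did not stand apart in its sum. Its 17 genes gave 1408 CPM in the deletion library (1190 to 1654), against 1365 and 1385 CPM in M475R and 1184 and 1381 CPM in WT. All 4 of the others fell inside the interval of the deletion value or, for WT replicate 1, just under it. The pooled ratio was 1.03 to M475R (0.870 to 1.21) and 1.13 to WT (0.898 to 1.41). Gene by gene, among the 10 of these members with a mean of at least 50 CPM, the median ratio was 0.894 to M475R, with 3 above 1, and 1.45 to WT, with 8 above 1. These genes were thus not clearly raised in the deletion library, and the ratio for the whole chromosome I stretch, 1.43 to M475R and 1.501 to WT, averages over unlike parts.

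**Figure D1:**
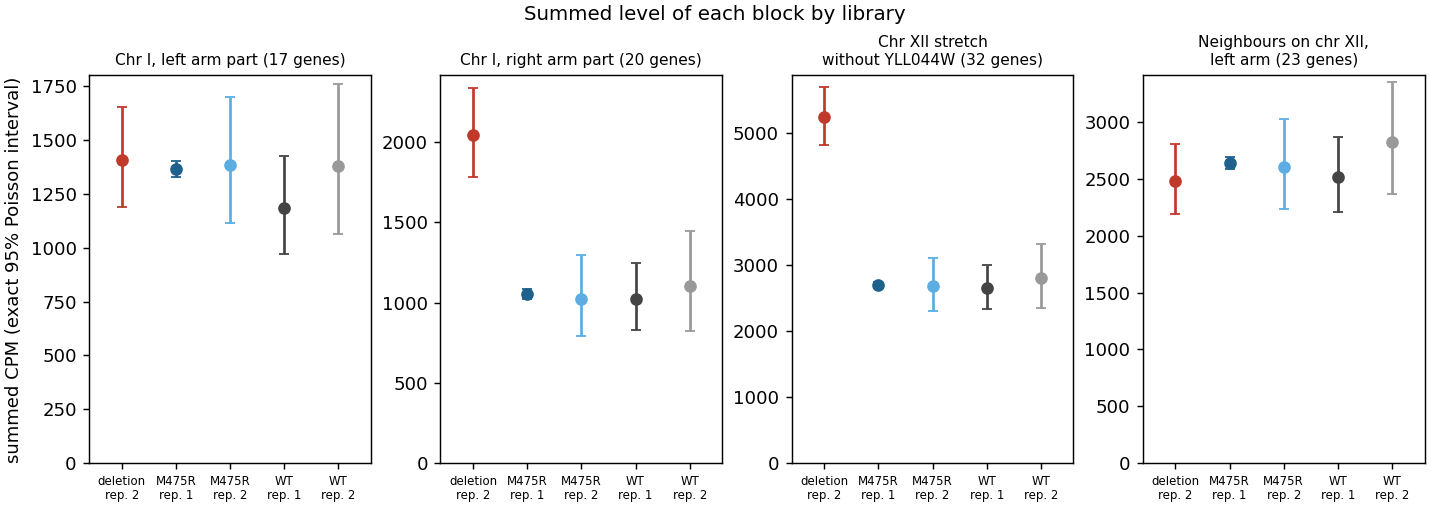
Summed level in CPM of each block of genes in the 5 libraries, deletion first, then M475R and WT; bars are exact 95% Poisson intervals for counting error. The deletion library stands at 2045 CPM for the right arm part of chromosome I and 5251 CPM for chromosome XII without YLL044W, above the other 4 libraries in both, whereas for the left arm part of chromosome I its interval overlaps those of the others. For the remaining left arm genes of chromosome XII, WT replicate 2 is the highest library, at 2827 CPM against 2483 CPM in the deletion library.

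Counts per gene were low, so single members were compared where the mean level over the 5 libraries reached 50 CPM. This minimum includes the deletion library, and a gene that is high there passes more easily. It was met by 36 members, 18 in each stretch, and 34 members fell under it. Over all 3630 genes above this level, the deletion library stood above each of the other 4 in 19.0%. In the chromosome XII stretch it did so for 16 of 18 members, HSU1 and GRC3 being the exceptions. On chromosome I it did so for 6 of 8 right arm members and 3 of 10 left arm members. With the minimum taken as 100 CPM in M475R replicate 1 alone, the counts were 10 of 10 on chromosome XII and 6 of 9 on chromosome I. The share over all genes was not taken at that minimum, so these counts have no background beside them.

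The ratios spread around their medians. On chromosome XII the deletion-to-WT ratio of the 18 members ran from 0.666 for GRC3 to 3.89 for YBT1, with quartiles of 1.48 and 2.23 and a median of 1.85. On chromosome I it ran from 0.551 for ERP2 to 2.80 for RFA1, with quartiles of 1.15 and 1.86 and a median of 1.52. Over all genes at this level the median was 0.998, and 16.4% reached 1.5; among the members 13 of 18 on chromosome XII and 9 of 18 on chromosome I did. A ratio of 2 was reached by 7 members on chromosome XII and 4 on chromosome I, against 5.51% of all genes. The ratio was above 1 for 17 of 18 members on chromosome XII and 15 of 18 on chromosome I, against 49.9% of all genes. Since WT and M475R libraries were each set against the same deletion library, the ratio to M475R is not an independent observation; its medians were 1.97 on chromosome XII and 1.43 on chromosome I, against 0.984 over all genes. The ratio to M475R was above 1 for 17 and 11 members on chromosomes XII and I (48.4% of all genes), reached 1.5 for 13 and 8 (10.7%), and reached 2 for 9 and 2 (3.22%).

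**Figure D2:**
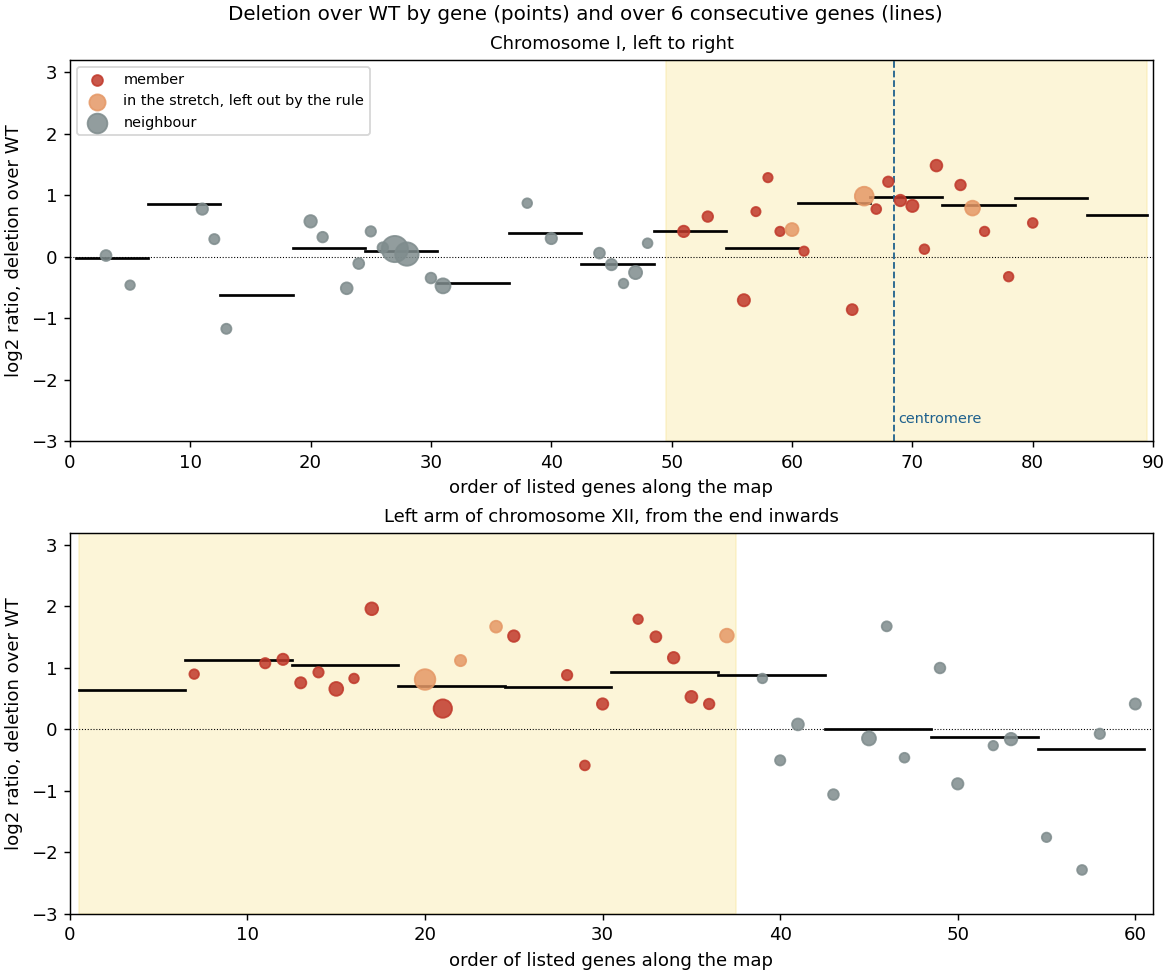
Deletion over WT on a log2 scale along chromosome I (left to right) and the left arm of chromosome XII (outermost gene first), in order of listed genes; points are genes with a mean of at least 50 CPM, sized by mean CPM, horizontal lines are sums over 6 consecutive genes with left-out genes included, shading marks the stretches and a dashed line the centromere. The lines scatter on both sides of 0 over the neighbours, and over the stretches they lie above 0, at ratios of 1.10 to 1.97 on chromosome I and 1.55 to 2.18 on chromosome XII.

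Among the genes of transcription, chromatin and DNA on chromosome I, RFA1 encodes the largest subunit of replication protein A, which coats single-stranded DNA. It had 400 CPM in the deletion library, against 231 and 226 CPM in M475R and 129 and 170 CPM in WT, so that the 5 libraries fell in 3 steps. The deletion stood at 1.73 times M475R (1.24 to 2.36) and 2.80 times WT (1.61 to 5.03), the highest ratio to WT among chromosome I members above 100 CPM. TFC3, which encodes the largest subunit of the RNA polymerase III factor TFIIIC, is the left arm gene with the lowest number. It had 200 CPM in the deletion library, against 115 and 120 CPM in M475R and 96.9 and 63.8 CPM in WT, a ratio of 1.74 to M475R and 2.33 to WT.

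FUN30, a chromatin remodeller gene and the member farthest out on the left arm that has a common name, had 247 CPM in the deletion library, against 154 and 196 CPM in M475R and 162 and 234 CPM in WT. Its deletion value was only slightly above that of WT replicate 2. SWD1, a gene of the histone methyltransferase complex COMPASS, had 85.6 CPM in the deletion library, against 58.5 and 60.2 CPM in M475R and 86.1 and 63.8 CPM in WT, so it did not stand above all others. DEP1, SWC3 and NTG1, for a histone deacetylase subunit, a subunit of the SWR1 remodeller and a DNA repair glycosylase, also overlapped between libraries, with 38.0 to 66.6 CPM in the deletion library, 30.1 to 90.3 in M475R and 21.5 to 63.8 in WT. On chromosome XII the same group holds YLL054C, a putative zinc cluster factor, with 181 CPM in the deletion library, against 70.6 and 105 CPM in M475R and 75.4 and 106 CPM in WT.

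The genes of RNA processing and protein synthesis were NUP60 and SEN34 on chromosome I and PRP19, GRC3, RIX7 and RNP1 on chromosome XII. NUP60, for a nucleoporin of the nuclear basket, had 323 CPM in the deletion library, against 142 and 181 CPM in M475R and 140 and 234 CPM in WT. The deletion stood at 2.26 times M475R (1.55 to 3.203) and 1.89 times WT (1.09 to 3.32). SEN34, for a subunit of the tRNA splicing endonuclease, was named after its values were seen: it had 14 counts in the deletion library, against 191 and 1 in M475R and 2 and 0 in WT. Its ratio to WT was 9.32, with an interval from 2.14 to 84.5, and to M475R 2.70.

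RIX7, for an ATPase of ribosome assembly, had 257 CPM in the deletion library, against 143 and 166 CPM in M475R and 162 and 255 CPM in WT. The deletion and WT replicate 2 were thus nearly equal, and the ratio to WT was 1.33 (0.752 to 2.36). PRP19, for a ubiquitin ligase of the spliceosome, had 171 CPM in the deletion library, against 89.4 and 120 CPM in M475R and 75.4 and 128 CPM in WT. GRC3, for a polynucleotide kinase of ribosomal RNA processing, went the other way, with 66.6 CPM in the deletion library, against 65.9 and 60.2 CPM in M475R and 108 and 85.01 CPM in WT.

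Membrane traffic and lipid genes included the member that stood highest on chromosome I per unit of length. ERP1, for a p24 protein that carries cargo between the endoplasmic reticulum and the Golgi, led that stretch in all 5 libraries, with 670 FPKM (a level scaled to gene length and library size, from the authors) in the deletion library, 324 and 347 FPKM in M475R and 338 and 479 FPKM in WT. In CPM it had 457 in the deletion library, against 214 and 226 in M475R and 226 and 319 in WT, or 2.13 times M475R (1.56 to 2.86) and 1.77 times WT (1.13 to 2.81). Its relative ERP2, on the left arm, had 114 CPM in the deletion library, against 116 and 120 CPM in M475R and 194 and 234 CPM in WT. The deletion and M475R values lay together and below WT, so ERP1 and ERP2 differed in pattern although they belong to 1 protein family.

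VPS13 on chromosome XII encodes a lipid transfer protein of membrane contact sites. It had 409 CPM in the deletion library, against 179 and 211 CPM in M475R and 151 and 128 CPM in WT. This put the deletion at 2.29 times M475R (1.64 to 3.11) and 2.86 times WT (1.65 to 5.14), the next highest ratio to WT after YBT1 among chromosome XII members above 100 CPM. GPI13, for an enzyme of glycosylphosphatidylinositol anchor synthesis, had 304 CPM in the deletion library, against 140 and 120 CPM in M475R and 118 and 85.01 CPM in WT. The ratio was 2.19 to M475R and 2.84 to WT. On the left arm of chromosome I, VPS8, for a tethering complex of endosomes, had 85.6 CPM in the deletion library, against 94.9 and 105 CPM in M475R and 43.1 and 63.8 CPM in WT. It stood between the other strains. SYN8, for an endosomal SNARE, had 105 CPM in the deletion library, against 75.8 and 15.1 CPM in M475R and 43.1 and 42.5 CPM in WT.

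The transport and metabolism group had the highest summed ratio to WT of the role groups with more than 1 member, 2.11 (1.75 to 2.54), and to M475R 1.94 (1.72 to 2.18). Its 15 genes summed to 2892 CPM in the deletion library, 1489 and 1460 CPM in M475R and 1346 and 1424 CPM in WT. The interval to WT overlapped that of transcription, chromatin and DNA (1.39 to 2.40). By gene median, membrane traffic and lipids stood higher, at 2.11 times WT against 1.86 for transport and metabolism. Most genes of the transport and metabolism group lie on chromosome XII, so this ranking cannot tell role from map position. YBT1, for a vacuolar ABC transporter of bile acids, had 752 CPM in the deletion library, against 292 and 331 CPM in M475R and 183 and 213 CPM in WT. The libraries of the 3 strains did not overlap for this gene, with M475R in the middle, although M475R and WT did not pass the test described further on. The deletion stood at 2.57 times M475R (2.02 to 3.23) and 3.89 times WT (2.49 to 6.27), the highest ratio to WT among members with a mean of 50 CPM or more.

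Farther out than YBT1 lies a pair of adjoining aquaporin reading frames. AQY2, for a water channel, had 314 CPM in the deletion library, against 93.0 and 105 CPM in M475R and 183 and 191 CPM in WT. YLL053C had 409 CPM in the deletion library, against 106 and 75.3 CPM in M475R and 215 and 128 CPM in WT. In both, the deletion was highest and M475R lowest. The ratio to M475R was 3.37 for AQY2 and 3.89 for YLL053C, the highest among chromosome XII members of 50 CPM or more. In laboratory strains they are pieces of 1 interrupted water channel gene, so they may not be independent transcripts.

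FRE6, for a vacuolar iron reductase, had 190 CPM in the deletion library, against 93.6 and 75.3 CPM in M475R and 108 and 85.01 CPM in WT. FRA1, which takes part in the response to iron, had 304 CPM in the deletion library, against 224 and 241 CPM in M475R and 118 and 170 CPM in WT. TPO1, a polyamine exporter gene, had 371 CPM in the deletion library, against 250 and 105 CPM in M475R and 237 and 298 CPM in WT. In all 3 the deletion value was above the others, with ratios to WT of 1.90, 2.24 and 1.44. ISA1, for a mitochondrial factor of iron-sulfur cluster assembly, had 143 CPM in the deletion library, against 114 and 135 CPM in M475R and 108 and 106 CPM in WT, a margin under 1 count over M475R replicate 2. HSU1, an enzyme gene of sulfur assimilation, had 66.6 CPM in the deletion library, against 70.03 and 120 CPM in M475R and 32.3 and 42.5 CPM in WT, and so overlapped with M475R. On chromosome I, PSK1, for a PAS domain kinase that senses nutrients, had 124 CPM in the deletion library, against 138 and 211 CPM in M475R and 75.4 and 85.01 CPM in WT.

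Cell cycle and polarity genes were mixed. COF1 encodes cofilin, which severs actin filaments, and after YLL044W it was the highest chromosome XII member per length in all 5 libraries. It had 790 CPM in the deletion library, against 521 and 437 CPM in M475R and 484 and 531 CPM in WT, or 1.52 times M475R (1.21 to 1.89) and 1.58 times WT (1.14 to 2.202). BUD14, for a phosphatase regulator at sites of polarised growth, had 257 CPM in the deletion library, against 132 and 60.2 CPM in M475R and 162 and 21.3 CPM in WT. The WT value of BUD14 rests on 15 counts and 1 count. LDB18, a dynactin subunit gene, had 114 CPM in the deletion library, against 43.6 and 60.2 CPM in M475R and 64.6 and 63.8 CPM in WT. KIN3, for a mitotic kinase, had 95.1 CPM in the deletion library, against 58.0 and 15.1 CPM in M475R and 75.4 and 63.8 CPM in WT. In all 4 the deletion value was the highest.

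TPD3, for a scaffold subunit of protein phosphatase 2A, was the chromosome I member with the highest mean level and did not share the pattern. It had 219 CPM in the deletion library, against 267 and 241 CPM in M475R and 355 and 361 CPM in WT, the lowest of the 5 libraries. Its ratio to WT was 0.612 (0.357 to 1.02). CDC15, a kinase gene of mitotic exit on the right arm, had 57.1 CPM in the deletion library, against 40.8 and 75.3 CPM in M475R and 53.8 and 106 CPM in WT, and overlapped throughout.

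**Figure D3:**
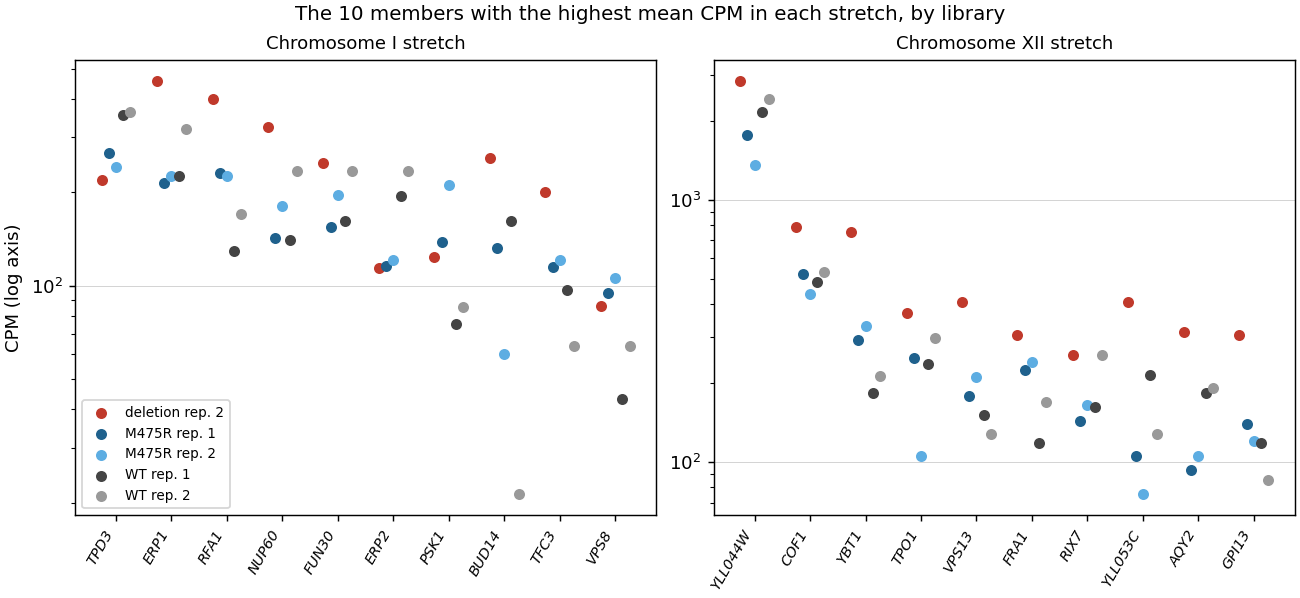
CPM on a log axis of the 10 members with the highest mean CPM in each stretch, in the deletion library, M475R replicates 1 and 2 and WT replicates 1 and 2. The deletion point is the topmost for all 10 on chromosome XII, and for 6 of 10 on chromosome I, where TPD3, ERP2, PSK1 and VPS8 are the exceptions.

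YLL044W had the highest level of all members, 2844 CPM in the deletion library, against 1762 and 1355 CPM in M475R and 2164 and 2423 CPM in WT. These were 299 counts in the deletion library, against 6742 and 90 in M475R and 201 and 114 in WT. Its ratio to WT, 1.26 (1.08 to 1.49), was the lowest among the chromosome XII members above 100 CPM, and its ratio to M475R was 1.62 (1.44 to 1.82). The deposited annotation of this reading frame names RPL8B, a ribosomal protein gene that it overlaps and that is one of the genes left out. Whether counting used strand is not given in the sources used here, so reads of YLL044W and RPL8B cannot be told apart. RPL8B had 6079 CPM in the deletion library, against 2284 and 2273 CPM in M475R and 3553 and 3294 CPM in WT.

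The 34 members with a mean under 50 CPM rested on few counts. Together they summed to 714 CPM in the deletion library (561 to 894), against 445 and 437 CPM in M475R and 409 and 340 CPM in WT. Their pooled ratio was 1.60 to M475R and 1.85 to WT, but the parts differed. Those of the left arm part of chromosome I stood at 0.933 times M475R and 1.26 times WT (0.609 to 2.585). Those of the right arm part stood at 2.22 times M475R and 3.73 times WT, on 7 and 3 counts in WT. Those on chromosome XII stood at 1.88 times M475R and 1.54 times WT (0.878 to 2.70). Of the 70 members, 12 were at 0 after rounding in the 4 libraries other than M475R replicate 1, 9 on chromosome I and 3 on chromosome XII. One of these, YAR069C, was at 0 after rounding in M475R replicate 1 too. In the 4 shallower libraries such genes lie under the floor, and no ratio is given for them. PHO11, an acid phosphatase gene whose reads may be shared with its near-identical copy PHO12, had 57.1 CPM in the deletion library, against 31.4 and 30.1 CPM in M475R and 43.1 and 21.3 CPM in WT. Of the DUP240 family of membrane proteins, whose members resemble each other, UIP3, above that mean, had 105 CPM in the deletion library, against 57.8 and 75.3 CPM in M475R and 75.4 and 63.8 CPM in WT. The outermost YLL066W-A and YLL067W-A gave identical values in every library, 42 counts each in M475R replicate 1 and 0 after rounding in the other 4. They belong to the repeated Y' elements, so their values do not report on this end alone. Several sulfur and amino acid transport genes lie near this end and were barely read: MMP1, a transporter of S-methylmethionine, had 4 counts in the deletion library, 29 and 0 in M475R and 3 and 0 in WT.

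The levels were also followed along the map in sums over 6 consecutive listed genes, left-out genes included. Among the neighbours of chromosome I these sums gave deletion-to-WT ratios from 0.651 over YAL049C to YAL045C to 1.81 (1.16 to 2.87) over YAL056C-A to YAL051W near the left end, so single groups of 6 genes outside the stretch also reached the values inside it. Toward the stretch the ratio was 0.919 over YAL026C-A to YAL022C, 1.33 over YAL020C to YAL016C-A and 1.10 over YAL016C-B to YAL012W. It was 1.83 over YAL011W to YAL003W, 1.97 over YAL002W to YAR007C, which crosses the centromere, and 1.79, 1.95 and 1.60 over the following groups to the right end. The group from YAL011W inward was carried by the left-out EFB1: its 5 other genes gave 0.878 times WT (0.539 to 1.41), a sum taken after the values were seen. The ratio to M475R of that group was 2.06 with EFB1 and 0.908 without it, and of the group across the centromere 1.81.

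On chromosome XII the same sums gave 1.55 for the outermost group, then 2.18, 2.06, 1.62, 1.61, 1.91 and 1.84 moving inward. The last of these holds no member and was carried by the left-out HSP104: its 5 other genes gave 1.05 times WT (0.695 to 1.58). The next groups toward the centromere gave 1.00, 0.915 and 0.799. The 19 members beyond RPL8B summed to 3006 CPM in the deletion library, against 1386 and 1415 CPM in M475R and 1443 and 1466 CPM in WT. The 14 members on its inner side summed to 5089 CPM in the deletion library, against 3077 and 2619 CPM in M475R and 3380 and 3762 CPM in WT. Without YLL044W, the inner 13 members summed to 2245 CPM in the deletion library, against 1316 and 1265 CPM in M475R and 1216 and 1339 CPM in WT. Both lay above the other strains, at 2.07 times WT (1.73 to 2.48) for the outer part, and 1.45 times WT (1.28 to 1.64) with YLL044W or 1.78 times WT (1.46 to 2.18) without it for the inner part.

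The borders were set by locus number and were not sharp at the level of single genes. On chromosome I the last members inside were YAL019W-A, with 1 count in the deletion library, FUN30, described above, and LDS1, with none there. Just outside, ATS1 had 57.1 CPM in the deletion library, against 41.3 and 0 CPM in M475R and 21.5 and 63.8 CPM in WT. FUN26 had 66.6 CPM in the deletion library, against 73.2 and 90.3 CPM in M475R and 32.3 and 106 CPM in WT. PMT2, for a protein mannosyltransferase, had 419 CPM in the deletion library, against 383 and 301 CPM in M475R and 506 and 489 CPM in WT. None of these 3 had its highest value in the deletion library.

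On chromosome XII the last members inside were FRA1, TPO1 and ISA1. Beyond the left-out HSP104, PAU17, of a family with many near-identical copies, was at 0 after rounding outside M475R replicate 1. POM33, a nuclear pore gene, had 76.1 CPM in the deletion library, against 87.0 and 75.3 CPM in M475R and 43.1 and 42.5 CPM in WT. HIF1, a histone chaperone gene, had 85.6 CPM in the deletion library, against 101 and 90.3 CPM in M475R and 118 and 128 CPM in WT. The deletion library was thus not the highest for any of them.

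The 7 left-out genes, within the stretches or, for HSP104, at their edge, carried more counts than all the members together in the deletion library. Of the 7, 6 had their highest value there, and only CYS3 did not. EFB1, for a translation elongation factor subunit, had 4090 CPM in the deletion library, against 1810 and 1641 CPM in M475R and 2088 and 2019 CPM in WT. ADE1, of purine synthesis, had 1608 CPM in the deletion library, against 172 and 226 CPM in M475R and 947 and 893 CPM in WT. FPS1, the gene of the glycerol channel that the ASK10 protein acts on, had 295 CPM in the deletion library, against 135 and 181 CPM in M475R and 118 and 170 CPM in WT, or 2.17 times either strain. FPS1 thus lay above the other 4 libraries by about as much as the members around it. HSP104, a protein disaggregase gene, had 885 CPM in the deletion library, against 587 and 587 CPM in M475R and 323 and 276 CPM in WT. With the left-out genes put back, the left arm part of chromosome I stood at 1.68 times M475R and 1.63 times WT, most of the added counts being those of EFB1. The right arm part, with ADE1, stood at 2.98 times M475R and 1.84 times WT, and the stretch on chromosome XII at 2.10 times M475R and 1.76 times WT.

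The neighbours on the same arms overlapped between strains or lay close together in their sums. The 49 remaining left arm genes of chromosome I summed to 20600 CPM in the deletion library, against 21740 and 21030 CPM in M475R and 19500 and 19850 CPM in WT, a ratio of 0.948 to M475R and 1.05 to WT. The deletion library was above the other 4 in 5 of 22 of them with a mean of 50 CPM or more. The 23 remaining left arm genes of chromosome XII summed to 2483 CPM in the deletion library, against 2641 and 2604 CPM in M475R and 2519 and 2827 CPM in WT. Of these, 0 of 15 had their highest value in the deletion library, against 16 of 18 members on the outer part of the same arm. The right arm of chromosome XII, with 458 genes, stood at 1.08 times M475R and 0.999 times WT.

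Across the 29 other chromosome arms the summed ratio of deletion to WT ran from 0.831 on the left arm of chromosome VIII to 1.13 on the right arm of chromosome III, with a median of 1.01. The gene medians of these arms ran from 0.930 to 1.07, and the share of genes with the deletion library on top from 7.14% to 26.8%. The right arm part of chromosome I, with a gene median of 1.62, and the chromosome XII stretch, with 1.85, lay outside these ranges, as did the left arm part of chromosome I, with 1.45. Set against M475R, that left arm part had a gene median of 0.894, inside the 0.817 to 1.07 of the other arms. Its gene median of M475R to WT, 1.70, lay above the 0.938 to 1.23 of those arms. The left and right arm parts had only 10 and 8 genes at 50 CPM or more, whereas each of the other arms had at least 17. The outermost 40 locus numbers of the 29 other arms gave summed ratios to WT from 0.821 to 1.20, and gene medians from 0.832 to 1.29. Their summed ratios to M475R ran from 0.833 to 1.54, the highest at the right end of chromosome XV and above the 1.43 of the chromosome I stretch. Their gene medians to M475R ran from 0.8135 to 1.21, below the gene median of 1.43 of the chromosome I stretch. At the right end of chromosome XV the gene median was 1.02. The outermost genes of the left arm of chromosome I, at the opposite end of that chromosome, stood at 1.05 times WT and 0.953 times M475R. This set reaches inward far enough to include the members FUN30 and YAL019W-A. The stretches were picked from the whole genome for their high values, so some excess over other arms was built into the choice.

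**Figure D4:**
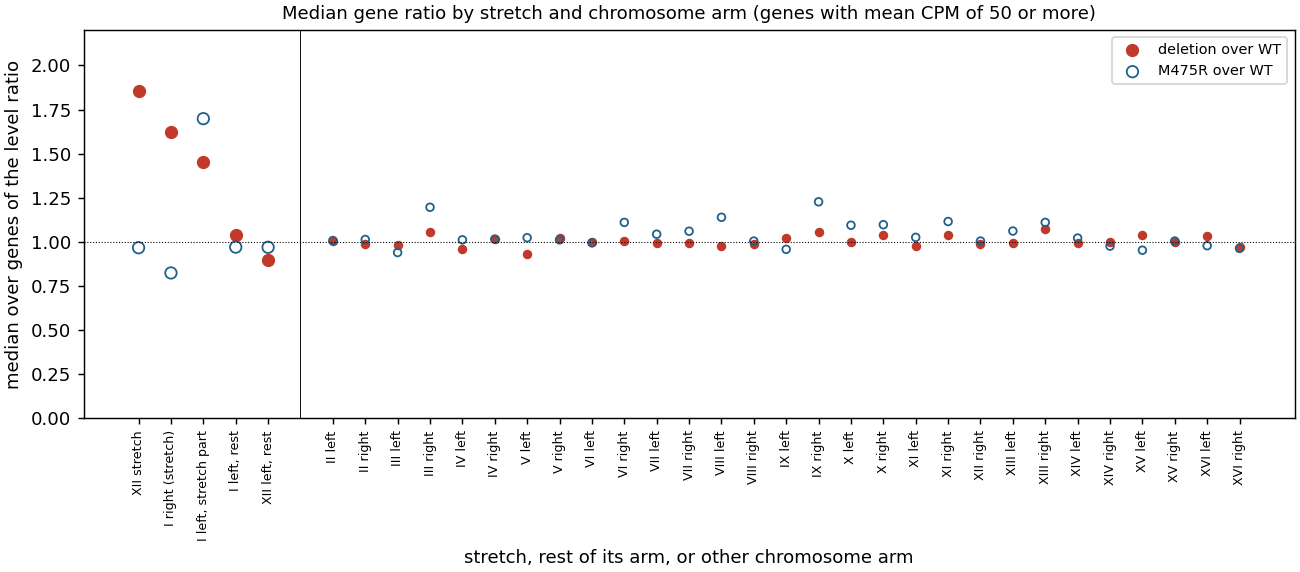
Median over genes with a mean of at least 50 CPM of the level ratio, deletion over WT (filled) and M475R over WT (open), for the stretches, the rest of their arms and the 29 other chromosome arms. For deletion over WT the chromosome XII stretch stands at 1.85 and the right arm part of chromosome I at 1.62, above the 0.930 to 1.07 of the other arms; for M475R over WT the left arm part of chromosome I stands at 1.70.

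M475R and WT were compared in a test across all genes, since the choice of members did not use this contrast, although the M475R and WT libraries are the ones set against the deletion above. The p-values speak of these libraries, not of the strains. edgeR's quasi-likelihood test with Benjamini-Hochberg adjustment called 540 of 2909 tested genes at an adjusted p under 0.05, or 18.6%, 246 higher (8.46%) and 294 lower (10.1%) in M475R. Of the 70 members, 29 passed the filter on low counts, 11 on chromosome I and 18 on chromosome XII. Of these 29, 3 (10.3%) were called, all lower in M475R, and 26 were not called. The filter could be met through the deletion library alone, so these 29 are not a neutral sample of the members. Without that library in the fit, 5 of 17 members were called, 2 higher and 3 lower in M475R, against 518 of 1912 genes. In the fit of all 5 libraries, the 29 tested members had a median log2 fold change of -0.04, with a range from -0.99 to 1.68. The median over all 2909 tested genes was 0.01.

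ERP2, with the values given above, had a log2 fold change of -0.84 ± 0.30 (SE, edgeR's quasi-likelihood test, adjusted p = 0.0308). AQY2 had -0.99 ± 0.33 (adjusted p = 0.0175), and YLL044W had -0.40 ± 0.11 (adjusted p = 0.00162). Both M475R libraries lay below both WT libraries in all 3 genes. The left-out RPL8B, whose reads cannot be told apart from those of YLL044W, had -0.60 ± 0.09 in the same quasi-likelihood test (adjusted p = 1.3e-09). Whether the call of YLL044W is its own or that of RPL8B was not tested. The call of ERP2 was lost when M475R replicate 1 (adjusted p = 0.507), WT replicate 1 (0.332) or WT replicate 2 (0.230) was left out. The call of AQY2 was lost in the same way, with adjusted p = 0.510, 0.442 and 0.127 without M475R replicate 1, WT replicate 1 and WT replicate 2. Over the edgeR alternatives that kept both M475R and both WT libraries, the adjusted p ran from 0.0274 to 0.3725 for ERP2 and from 0.0163 to 0.2956 for AQY2. The DESeq2 test gave no adjusted p for either gene and called neither. YLL044W kept its call when any 1 library was left out, and over all alternatives its adjusted p ran from 0.000977 to 0.457, the highest with a fixed biological coefficient of variation.

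Members with high ratios of deletion to WT, YBT1, RFA1, FRA1, VPS13 and GPI13 among them, were not called between M475R and WT. YBT1 had a log2 fold change of 0.60 ± 0.26 (adjusted p = 0.101), RFA1 0.69 ± 0.30 (0.0996) and FRA1 0.72 ± 0.31 (0.0860), each with M475R between the deletion and WT. Without the deletion library in the fit, YBT1 (adjusted p = 0.0490) and FRA1 (0.0461) were called, both higher in M475R. YLL053C had -0.82 ± 0.32 (adjusted p = 0.0503), just short of the threshold, and was called without WT replicate 2 (adjusted p = 0.0496) and with DESeq2 size factors (0.0469). VPS13 had 0.33 ± 0.31 and GPI13 0.38 ± 0.36. An adjusted p above the threshold does not show equal levels: at these counts the SE of a member ran from 0.11 for YLL044W to 1.29 for SEN34.

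In their sums, the members were close between M475R and WT in most blocks. Of the members with a mean of 50 CPM or more, 8 of 18 on chromosome XII and 9 of 18 on chromosome I had a ratio above 1, against 52.3% of all genes. The right arm part of chromosome I stood at 1.00 times WT (0.850 to 1.19), and the stretch on chromosome XII without YLL044W at 0.998 times WT (0.900 to 1.11). With YLL044W the chromosome XII stretch stood at 0.899 times WT (0.833 to 0.971). The left arm part of chromosome I stood at 1.09 times WT (0.939 to 1.28). With the left-out genes put back, the right arm part of chromosome I stood at 0.620 times WT (0.549 to 0.702), its added gene being ADE1, and the chromosome XII stretch at 0.839 times WT (0.793 to 0.889). The gene median of the left arm part, without those genes, was 1.70 over 10 members, with a ratio of 1.90 for VPS8 and 1.77 for PSK1, and of 0.746 for TPD3 and 0.558 for ERP2.

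**Figure D5:**
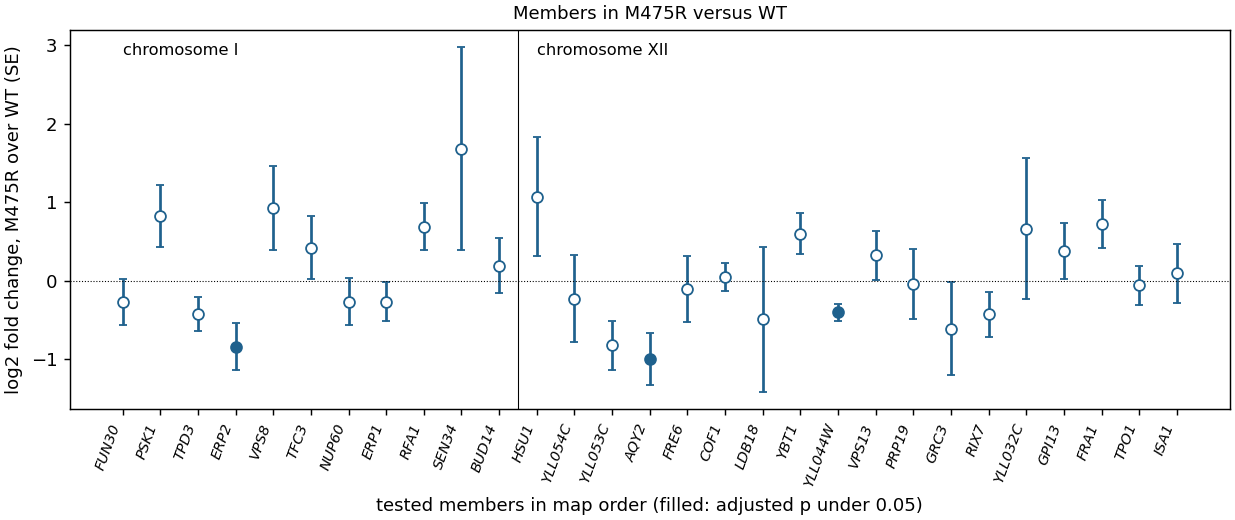
Log2 fold change of M475R over WT with its SE for the 29 tested members in map order, chromosome I left of the vertical line and chromosome XII right of it; filled points have an adjusted p under 0.05. ERP2 (-0.84), AQY2 (-0.99) and YLL044W (-0.40) are filled, and the other 26 are open on both sides of 0.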

How the data were processed

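Reads were processed with BWA and Bowtie, per the submitters' processing notes, which give no version. Genome build, annotation release, counting tool and strand setting are not given in the sources used here. The deposited gene identifiers carry the strain name CEN.PK113-7D, which was removed to leave the locus tags. Per the file headers, the 7 full deposited tables give an expected count and an FPKM for each gene and library, and a gene length in bases. FPKM stands at 0.001 where a gene had no count, and the same value was filled in here for a gene not listed for a library. Expected counts were rounded (534 values were not whole) and joined over 6032 genes. Another 20 columns of per-sample values in 6 filtered lists were not used. Locus tags were matched to assembly R64 (5515 matched) for names and gene order only. CPM and ratios used TMM; intervals are exact Poisson or conditional binomial. The test of M475R versus WT was edgeR 4.0.16 (R 4.3.3), quasi-likelihood with filterByExpr, all 5 libraries in 1 fit; Benjamini-Hochberg adjusted p-values under 0.05 were called. The common dispersion corresponded to a biological coefficient of variation of 3.18% with 2 residual degrees of freedom, so p-values hold little beyond counting error and compare libraries. The steps were tested on simulated data. Named genes are the 10 highest members per stretch, the 3 genes on each side of a border, the 2 highest and 2 lowest ratios above 100 CPM, and called members; others were named to complete role groups. Members, lists and roles were chosen with earlier results of these data known. Alternatives covered normalization, filters, DESeq2 1.42.0, dispersion, a replicate block, FPKM and leaving out libraries.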

Additional observations from a re-analysis of the deposited data

How the results depend on the processing

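Of 102 alternative values, 77 stayed near the value reported and 25 moved. No ratio of the deletion to another strain crossed 1, whereas the chromosome I ratio of M475R to WT, 1.05 with an interval that holds 1, fell below 1 with the left-out genes put back (0.849), as a median over members (0.988), from FPKM (0.977) and without WT replicate 1 (0.973). Against 540 genes and 3 members called between M475R and WT by edgeR's quasi-likelihood test, DESeq2 called 132 genes and 1 member, and a biological coefficient of variation fixed at 20% left 84 genes and 0 members (8 members had an unadjusted p under 0.05 in the fit reported). Leaving out 1 library gave 176 to 518 genes and 1 to 5 members; without the deletion library, FRA1 (adjusted p = 0.0461) and YBT1 (0.0490) were called. With the replicate number as a block, 486 genes and 2 members were called, YLL044W and YLL053C (adjusted p = 0.0306); ERP2 had an adjusted p of 0.0883 and AQY2 of 0.0538. Deviations of the 2 replicates numbered 1 from their strain means had r = 0.014 over 2909 genes. Replicates of a strain differed by no more than sampling noise, so this r cannot show whether the numbers pair the libraries. With total counts in place of TMM, 276 genes were higher and 264 lower, against 246 and 294, so the larger side turned.

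For the chromosome I stretch the deletion-to-WT ratio of 1.501 was 1.13 for the left arm part only and 1.95 for the right arm part only, a split chosen after seeing the data, and 1.39 to 1.56 without 1 library. Its deletion-to-M475R ratio of 1.43 was 1.03 for the left and 1.94 for the right arm part, 2.01 with the left-out genes put back, and 1.43 to 1.43 without 1 library. Its M475R-to-WT ratio was 0.973 to 1.10 without 1 library. The 9 members with the deletion library on top were 9 to 10 without 1 library. The deletion library then had fewer others to exceed, and the share over all genes was not taken with a library left out.

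For the chromosome XII stretch the deletion-to-WT ratio of 1.63 was 1.85 as a median over members, 1.94 without YLL044W, 1.38 from FPKM and 1.55 to 1.68 without 1 library. Its deletion-to-M475R ratio of 1.82 was 1.97 as a median, 2.10 with the left-out genes put back and 1.81 to 2.01 without 1 library. Its M475R-to-WT ratio of 0.899 was 0.998 without YLL044W, 0.756 from FPKM and 0.814 to 0.924 without 1 library. The 16 members with the deletion library on top became 10 of 10 where the minimum was 100 CPM in M475R replicate 1. At that minimum the share over all genes was not taken.

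The deletion strain had 1 library, so its values have no replicate check. In the 4 libraries with 51572 to 117679 counts, a member under 28.5 to 63.8 CPM lies below the floor of 3 counts.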

Other observations

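RPL8B, the left-out gene that overlaps YLL044W, has a near-identical copy, RPL8A, on the left arm of chromosome VIII, outside the stretches. RPL8A had 16 counts in the deletion library, 4057 and 83 in the M475R libraries and 135 and 61 in the WT libraries, whereas RPL8B had 639 in the deletion library, 8739 and 151 in M475R and 330 and 155 in WT. The pooled ratio of RPL8A was 0.143 for deletion to M475R and 0.109 for deletion to WT, and that of RPL8B was 2.66 for deletion to M475R and 1.75 for deletion to WT. How reads were shared between the copies was not tested.

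Over the members alone, the deletion library differed more from the other libraries than it did over all genes. The chi-square per degree of freedom against WT replicate 1 was 4.53 over 35 members and 1.40 over all genes compared, and against WT replicate 2 it was 3.31 over 23 members and 1.38 over all genes. Against M475R replicate 2 it was 4.66 over 29 members and 2.76 over all genes. Since the members were chosen for high values in this library, these are descriptions. Between M475R replicate 2 and WT replicate 1, a pair that the choice did not use, it was 2.00 over 24 members and 3.04 over all genes.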
